A study of Mus musculus with 9 samples.

Results

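The genes described here are 8 Kruppel-like factors (KLFs), *Klf2*, *Klf3*, *Klf4*, *Klf6*, *Klf7*, *Klf10*, *Klf11* and *Klf13*, taken by symbol from an RNA-seq table of 55487 genes in murine splenic CD4+ T cells. Each symbol matched 1 gene. KLFs are transcription factors with zinc fingers near the carboxyl end that bind GC-rich and CACCC-type DNA, and members differ mainly in the parts that recruit activators or repressors. In T cells, KLF2 is known for holding naive cells in quiescence and for driving the receptors with which they leave lymphoid tissue, and it is lost when the TCR is engaged. Other members are known as repressors (KLF3), as early response or TGF-β-induced factors (KLF4, KLF6, KLF10 and KLF11), or as a factor of late chemokine expression (KLF13).

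The cells came from spleens of wild-type (*Trail-r*+/+) C57BL/6 mice and were purified by negative selection. The methods section describes such mice as females of 6 to 7 weeks. There were 3 groups of 3 libraries. Medium cells received neither Abs nor TRAIL, and their time in culture is not given in the sources used here. Stimulated cells were given 2 Abs for 24 h, one to CD3 (3 µg/ml), part of the TCR complex, and one to CD28 (2 µg/ml), which costimulates. TRAIL-treated cells received the same Abs for 24 h together with TRAIL, a death-receptor ligand of the tumor necrosis factor family, at 10 µg/ml. All of the groups carried intact TRAIL-R, and TRAIL-R-knockout cells or cells given TRAIL alone were not analysed here. Nothing in the labels says whether replicates came from separate mice, so the p-values measure the spread between these libraries, which may be technical.

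Expression is in TPM, which divides the reads of a gene by its length and scales each library to the same total, so levels of different genes can be set side by side while the depth behind them is unknown. Groups were compared with limma on log2(TPM + 1) over the 15536 genes that reached 1 TPM in 3 or more libraries, and all 8 KLF genes passed this filter. A call required an adjusted p (Benjamini-Hochberg) under 0.05 together with a log2 fold change of 1 or more in either direction. Log2 fold changes below are on that log2(TPM + 1) scale and understate the change of low genes, whereas plain folds are ratios of mean TPM. With 3 libraries on each side the smallest two-sided p of an exact permutation test is 0.1, and the p-values given are therefore those of limma, which borrows the spread from other genes.

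T cell genes were abundant in all 9 libraries. The summed level of 8 T cell genes, among them *Cd3e* and *Cd4*, was 2734 to 2968 TPM in medium, 2533 to 2756 TPM in stimulated and 2685 to 3018 TPM in TRAIL-treated libraries. Single genes of the list differed in direction after stimulation, and are named for that. *Cd3g* was called lower (means of 615 and 299 TPM in medium and stimulated cells, a call lost without medium replicate 1 or 3), *Cd2* was called higher (392 and 839 TPM), and *Cd4* averaged 384 and 220 TPM without being called (adjusted p = 0.00119 from limma). *Il2ra*, the high-affinity IL-2 receptor chain, averaged 24.0, 868 and 23.2 TPM in the same order. Of the other activation genes listed, *Tfrc* was also highest after stimulation (48.4, 220 and 90.3 TPM), whereas *Cd69* (448, 380 and 733 TPM) and *Cd44* (116, 83.8 and 98.6 TPM) were lowest there on average. Transcripts of other spleen cells were present too, and they differed between groups. The summed level of 8 B cell genes was 2258 to 2367 TPM in medium, 187 to 205 TPM in stimulated and 937 to 1059 TPM in TRAIL-treated libraries. The corresponding ranges were 1913 to 2174, 59.1 to 73.4 and 1385 to 1602 TPM for 10 myeloid genes, and 1811 to 2076, 20.4 to 32.8 and 488 to 552 TPM for 6 erythroid genes. In bulk RNA, fewer cells of a type and less RNA per cell cannot be told apart.

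The upstream sequences of 3 members are given below. The 3 are the most abundant member in medium (*Klf2*), the member with the largest difference between stimulated and TRAIL-treated cells (*Klf4*), and the member with the largest difference between medium and TRAIL-treated cells (*Klf6*). Each sequence was taken from RefSeq on build GRCm38.p6, reads 5′ to 3′ on the gene's own strand and stops before the first transcribed base given by either RefSeq or the deposited table. Capitals mark a MEF2 site, bound by the MEF2 factors that drive *Klf2*, and the GC box GGGCGG or its complement CCGCCC, a sequence that KLF and SP proteins can bind.
*Klf2*, chr8:72318812-72319032, plus strand: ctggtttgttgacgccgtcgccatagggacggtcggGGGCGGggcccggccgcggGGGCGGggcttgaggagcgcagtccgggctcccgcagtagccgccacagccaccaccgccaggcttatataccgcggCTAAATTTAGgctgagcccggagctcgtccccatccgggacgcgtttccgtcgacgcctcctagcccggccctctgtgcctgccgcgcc
*Klf4*, chr4:55532476-55532725, minus strand: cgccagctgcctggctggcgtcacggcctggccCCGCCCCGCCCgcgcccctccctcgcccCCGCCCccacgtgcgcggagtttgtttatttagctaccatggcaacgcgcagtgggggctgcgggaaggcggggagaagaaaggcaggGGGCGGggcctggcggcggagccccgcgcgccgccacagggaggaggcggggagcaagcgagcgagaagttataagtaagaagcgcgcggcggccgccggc
*Klf6*, chr13:5861239-5861481, plus strand: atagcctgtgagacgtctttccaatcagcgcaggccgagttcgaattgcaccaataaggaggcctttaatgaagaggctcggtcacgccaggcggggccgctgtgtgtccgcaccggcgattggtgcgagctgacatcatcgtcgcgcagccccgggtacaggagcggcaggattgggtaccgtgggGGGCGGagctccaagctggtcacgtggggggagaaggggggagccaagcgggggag
RefSeq windows of 250 bases were found for 7 of the 8 genes, *Klf10* being the exception. Both strands were searched. The MEF2 site was present in *Klf2*, from 118 to 109 bases before its RefSeq start, and was not matched in the windows of the other 6 genes. Of 32851 such windows over all genes, 0.508% held it. GGGCGG was matched in all 7 windows, from 1 time in *Klf6* and *Klf7* to 6 times in *Klf3*, against 32.7% of all windows. CACCC, which was held by 52.0% of all windows, was matched in *Klf2*, *Klf3*, *Klf7* and *Klf13*. The CCAAT-type sequence ATTGG was matched 4 times in *Klf6* and 2 times in each of *Klf11* and *Klf13* (33.8% of all windows). The forkhead sequence TTGTTTAC was matched in none of the 7 (1.07% of all windows), and other forms of the forkhead site were not searched. A match describes the letters of the window and is not evidence of binding.

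The members are scattered over the genome on 8 chromosomes, and the loci of all 8 in the deposited table are those of GENCODE M21 on GRCm38. *Klf2* (ENSMUSG00000055148, chromosome 8, 72319033 to 72321656, 3 exons), *Klf4* (ENSMUSG00000003032, chromosome 4, 55527143 to 55532466, 5 exons), *Klf6* (ENSMUSG00000000078, chromosome 13, 5861482 to 5870394, 4 exons), *Klf10* (ENSMUSG00000037465, chromosome 15, 38291463 to 38300706, 4 exons) and *Klf11* (ENSMUSG00000020653, chromosome 12, 24651274 to 24662789, 4 exons) are compact genes that span 2624 to 11516 bases. *Klf3* (ENSMUSG00000029178, chromosome 5, 64803388 to 64832901, 6 exons), *Klf13* (ENSMUSG00000052040, chromosome 7, 63886351 to 63938915, 2 exons) and *Klf7* (ENSMUSG00000025959, chromosome 1, 64029447 to 64122282, 4 exons) span 29514, 52565 and 92836 bases. The longer genes overlap other annotated genes, while the 5 compact ones overlap none. Within *Klf3* these are *Gm20033* on the opposite strand, at no more than 3.14 TPM, and *C230096K16Rik* on the same strand, at no more than 11.2 TPM. Whether the counting used strand is not stated, and reads of such pairs may have been divided arbitrarily.

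KLF mRNA in sum was lowest in stimulated cells and highest with TRAIL. The 8 genes together reached 834 ± 93.1 TPM for medium, 252 ± 33.5 TPM for stimulated and 1368 ± 51.0 TPM for TRAIL-treated cells (mean ± SD, n = 3 each), and the ranges of the groups did not overlap. In medium the order of levels was *Klf2*, *Klf3*, *Klf13*, *Klf6*, *Klf4*, *Klf7*, *Klf10* and *Klf11*, and only the neighbours *Klf13* and *Klf6* overlapped in their libraries. *Klf2* alone made up 44.9% ± 1.66 (SD, n = 3) of the summed KLF TPM. In stimulated cells *Klf6* came first with 34.5% ± 1.66 (SD, n = 3) of the sum, followed by *Klf13* and *Klf2*, whose libraries overlapped, while *Klf2* held 23.1% ± 2.20 (SD, n = 3). With TRAIL the order was led by *Klf2* at 37.9% ± 1.15 (SD, n = 3) and *Klf6* at 32.1% ± 2.45 (SD, n = 3), and *Klf3* and *Klf13* were the only overlapping neighbours. The share of *Klf3* went from 18.7% ± 0.402 in medium to 5.84% ± 0.432 in stimulated and 10.5% ± 1.01 in TRAIL-treated cells (SD, n = 3).

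**Figure D1:**
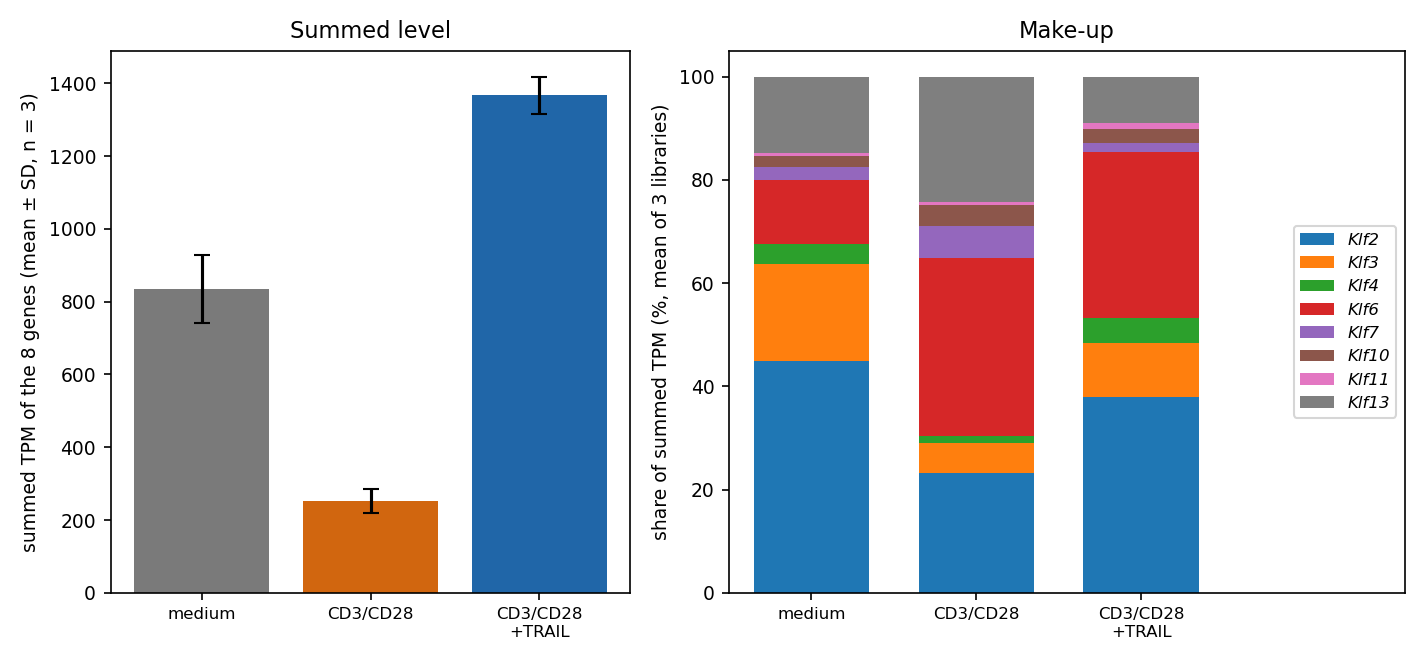
Left, summed TPM of the 8 KLF genes by group, as bars of the mean of 3 libraries with SD. Right, the mean share of each gene in that sum (%), by group. The sum is 834 TPM in medium, 252 TPM after anti-CD3/CD28 (CD3/CD28) and 1368 TPM with TRAIL added, and *Klf2* is the largest part except after stimulation, where *Klf6* is.

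The first comparison asked which KLF genes TCR stimulation lowered. Of the 8, 5 were called lower in stimulated than in medium cells and 0 higher, against 19.5% of all genes tested called lower and 12.4% higher. The 5 are *Klf2*, *Klf3*, *Klf4*, *Klf11* and *Klf13*. The remaining members lay lower without being called, and 0 members were higher at an unadjusted p under 0.05 by limma. In all 8 genes every stimulated library was below every medium library, which held for 42.6% of the genes tested. The median log2 fold change of the 8 was -1.18, beside -0.15 over all genes tested.

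The next comparison asked what TRAIL did in stimulated cells. A total of 6 members were called higher in TRAIL-treated than in stimulated cells and 0 lower, against 16.6% of all genes tested called higher and 14.3% lower. These were *Klf2*, *Klf3*, *Klf4*, *Klf6*, *Klf10* and *Klf11*. Every TRAIL-treated library exceeded every stimulated one in all 8 genes, as it did in 35.5% of the genes tested. The median log2 fold change was 2.54, beside 0.01 over all genes tested, and 0 members were lower at an unadjusted p under 0.05 by limma.

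The last comparison set TRAIL-treated against medium cells, to see whether the genes returned to the medium level. *Klf6*, *Klf10* and *Klf11* were called higher (3 of 8, against 2.49% of all genes tested) and 0 members were called lower by limma (2.13%; 0 at an unadjusted p under 0.05). In *Klf2*, *Klf4*, *Klf6*, *Klf10* and *Klf11*, that is in 5 of 8, no TRAIL-treated library overlapped with medium, which held in this direction for 12.4% of the genes tested. All 5 lay above stimulated libraries as well, which together held for 6.34%. *Klf3*, *Klf7* and *Klf13* overlapped with medium. *Klf6*, *Klf10* and *Klf11* were thus called higher than in both other groups, as were 1.35% of all genes tested. The 3 comparisons share libraries in pairs, so they are not independent of each other. Because TPM values are shares of a total, the scaling can move calls. For TRAIL-treated against medium cells the calls over all genes were 387 higher and 331 lower, but 536 and 187 under median-of-ratios scaling and 526 and 219 under quantile normalization, which moved the median of all genes by 0.17 and 0.14 on the log2 scale. For stimulated against medium cells the calls were 1926 higher and 3033 lower, and 2434 and 2240 under quantile normalization, with a shift of 0.19. *Klf6*, *Klf10* and *Klf11* were called higher than in medium under both scalings, and *Klf4* was then called too (1.16 and 1.18).

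**Figure D2:**
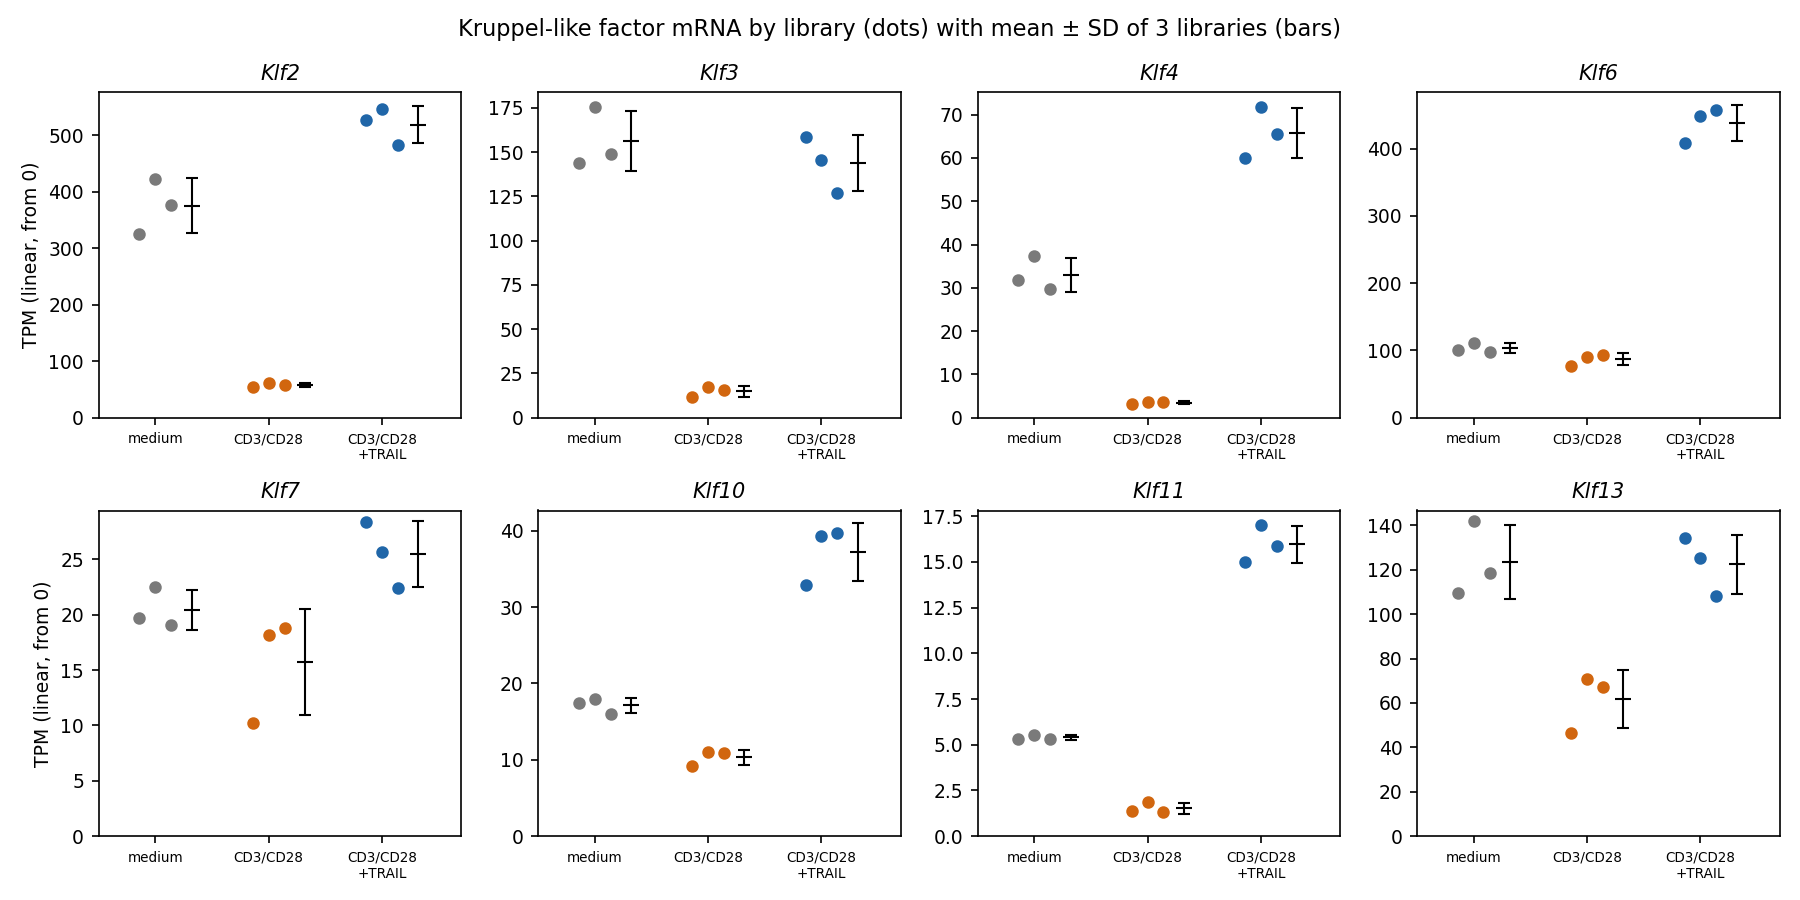
TPM of each KLF gene (linear axes from 0, 1 panel per gene) in medium, after anti-CD3/CD28 (CD3/CD28) and after anti-CD3/CD28 with TRAIL, with 1 dot per library and the mean ± SD of 3 libraries beside them. Stimulated libraries lie lowest in all 8 panels, and the TRAIL-treated libraries of *Klf6*, *Klf10* and *Klf11* lie far above both other groups.

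*Klf2*, the quiescence and trafficking factor, measured 325, 423 and 377 TPM in the medium libraries, 54.6, 62.0 and 56.9 TPM in the stimulated ones and 528, 546 and 482 TPM in the TRAIL-treated ones. The groups are separate, and all TRAIL-treated libraries lie above the highest medium library. Stimulated cells had 6.49-fold less than medium cells, which is -2.67 on the log2 scale with a standard error of 0.11 (adjusted p = 1.4e-08 from limma). TRAIL-treated cells had 8.97-fold more than stimulated cells, with a log2 fold change of 3.14 (adjusted p = 6.4e-09 from limma). Against medium the difference with TRAIL was 0.47 (95% confidence interval 0.23 to 0.72, adjusted p = 0.0101 from limma), which is below the fold threshold. In the medium group *Klf2* stood above 97.8% of the genes tested, in the stimulated group above 79.2%, and in the TRAIL-treated group above 98.5%.

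*Klf3*, a repressor that works through CtBP corepressors, followed *Klf2* down and up but stopped at the medium level. Its libraries read 144, 176 and 149 TPM in medium, 11.5, 17.2 and 15.7 TPM after stimulation and 158, 146 and 127 TPM with TRAIL. Medium and TRAIL-treated libraries overlap, and the stimulated libraries lie far below both. The log2 fold change was -3.33 with stimulation (10.6-fold lower, standard error 0.15, adjusted p = 2.6e-08 from limma), the largest fall of the 8 members on this scale. With TRAIL it was 3.21 against stimulated cells (9.70-fold, adjusted p = 4.0e-08 from limma). Between TRAIL-treated and medium cells no difference was detected (-0.12, 95% confidence interval -0.46 to 0.22).

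*Klf13*, which is named for its part in the late expression of the chemokine gene *Ccl5*, and *Klf7*, a widely expressed relative, changed less. *Klf13* read 110, 142 and 119 TPM in medium, 46.7, 71.0 and 67.2 TPM after stimulation and 134, 125 and 108 TPM with TRAIL. Its fall with stimulation lay at the fold threshold (log2 fold change -1.01, standard error 0.17, adjusted p = 3.5e-04 from limma), and without stimulated replicate 1, its lowest library, the difference was -0.82 and was not called. Without medium replicate 2 it was -0.90 and under median-of-ratios scaling -0.91, also not called. With TRAIL the difference from stimulated cells was 1.00 (standard error 0.17, adjusted p = 3.7e-04 from limma), just short of a call, and it was called under 7 of 19 alternatives, among them median-of-ratios scaling (1.09) and quantile normalization (1.13). TRAIL-treated and medium cells differed by -0.0086 (95% confidence interval -0.38 to 0.36). The near members at the threshold in the remaining comparisons were *Klf4*, at 0.98 for TRAIL-treated against medium cells, and *Klf10*, at 1.07.
*Klf7* measured 19.7, 22.5 and 19.1 TPM in medium, 10.3, 18.2 and 18.8 TPM after stimulation and 28.4, 25.7 and 22.4 TPM with TRAIL. Stimulated replicate 1 is the low value in this gene. The difference between stimulated and medium cells was -0.40 (95% confidence interval -0.85 to 0.05, adjusted p = 0.105 from limma), and -0.13 without that library. The value for TRAIL-treated against stimulated cells was 0.70 (adjusted p = 0.0109 from limma), below the fold threshold, and 0.43 without that library. The value with all libraries was the smallest of the 8 members for TRAIL-treated against stimulated cells.

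*Klf4*, a factor that restrains proliferation and is also well known from monocytes and macrophages, measured 31.7, 37.4 and 29.7 TPM in medium, 3.11, 3.71 and 3.61 TPM after stimulation and 60.1, 71.8 and 65.5 TPM with TRAIL. Every group is separate from the others. It fell 9.48-fold with stimulation (log2 fold change -2.92, standard error 0.12, adjusted p = 1.3e-08 from limma) and stood 18.9-fold higher with TRAIL than without it (3.90, standard error 0.12, adjusted p = 2.8e-09 from limma), the largest TRAIL difference among the 8. Against medium the difference was 0.98 (95% confidence interval 0.71 to 1.25, adjusted p = 3.3e-04 from limma), a 2.00-fold higher mean that was called under 5 of 19 alternatives. The myeloid genes moved with *Klf4* across medium and stimulated cells. All 10 were called lower after stimulation, all 10 were called higher with TRAIL than without it, and their median log2 fold changes were -5.40 and 5.26. Of all genes tested, 19.5% were called lower and 16.6% higher in these comparisons. Against medium they parted from it, with 0 of 10 called by limma, beside 2.49% of all genes tested called higher and 2.13% lower. Their median there was -0.17, and 4 were lower at an adjusted p under 0.05. *Klf4* was higher there by 0.98 but was not called either. None of the 10 was at the floor of the table in all libraries of a group, and their part in the *Klf4* values was not tested. The 8 B cell genes likewise were all called lower after stimulation (median -3.53) and higher with TRAIL than without it (2.40), and 6 of the 8 were called lower with TRAIL than in medium (median -1.15), beside 2.13% of all genes tested called lower there. B cells are also known to express *Klf2*, and the part of these genes in the *Klf2* values was not tested. The T cell list had a median of -0.11 after stimulation, 0.32 with TRAIL against stimulated cells and 0.07 with TRAIL against medium.

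**Figure D3:**
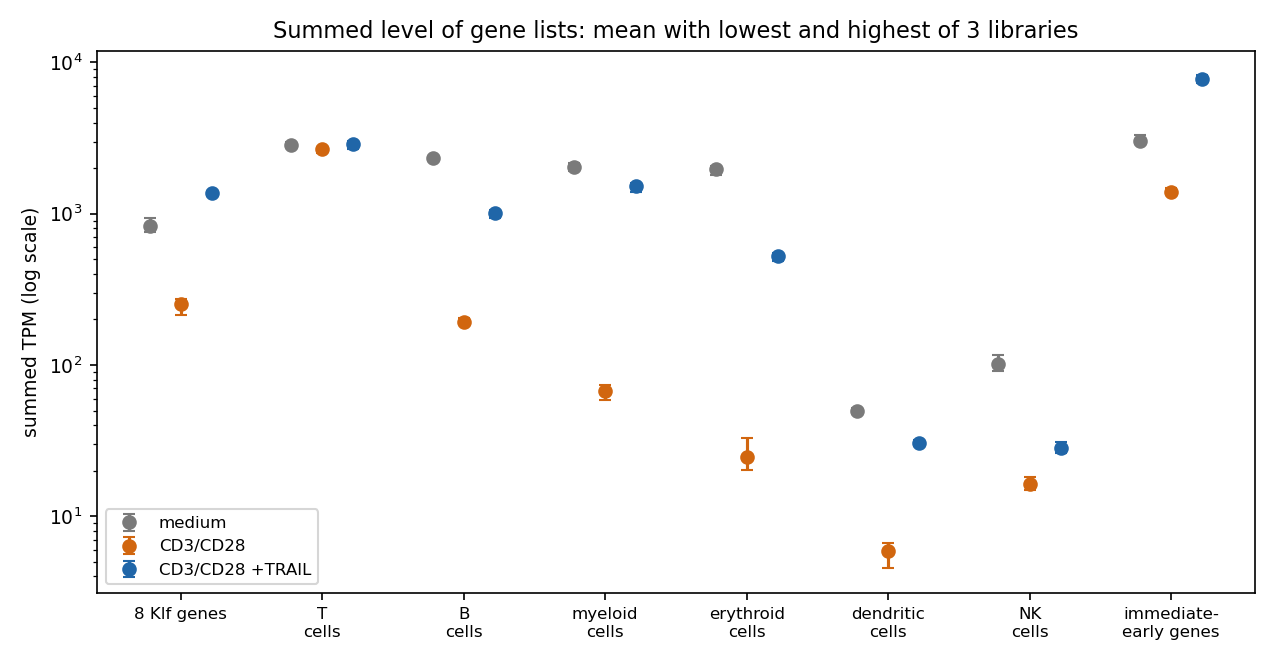
Summed TPM (log axis) of the 8 KLF genes, of marker lists for T, B, myeloid, erythroid, dendritic and NK cells, and of 12 immediate-early genes, by group, as the mean with the lowest and highest of 3 libraries. B cell, myeloid and erythroid lists are highest in medium, whereas the KLF and immediate-early sums are highest with TRAIL and the T cell list lies between 2533 and 3018 TPM in all libraries.

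*Klf6*, a ubiquitous early response factor, differed little between medium and stimulated cells. It measured 101, 112 and 97.9 TPM in medium, 76.9, 89.9 and 93.3 TPM after stimulation and 408, 449 and 458 TPM with TRAIL. Medium and stimulated libraries are close together without overlapping, and every TRAIL-treated library lies far above both. The stimulated mean was 1.19-fold below the medium mean, a log2 difference of -0.25 that was not called (adjusted p = 0.0482 from limma). TRAIL-treated cells were 5.05-fold above stimulated cells (2.33, standard error 0.10, adjusted p = 2.5e-08 from limma) and 4.24-fold above medium cells (2.07, standard error 0.10, adjusted p = 8.5e-07 from limma), the largest excess over medium of the 8 members. Between medium and stimulated cells *Klf6* differed by 1.19-fold while the summed myeloid genes went from a mean of 2050 to 66.9 TPM and the B cell genes from 2319 to 194 TPM. Between stimulated and TRAIL-treated cells, where *Klf6* differed by 5.05-fold, these sums went up to 1527 and 1010 TPM. Their part in the *Klf6* values was not tested.

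*Klf10* and *Klf11*, which are induced by TGF-β and repress through SIN3A, rose together with TRAIL. *Klf10* read 17.4, 17.9 and 16.0 TPM in medium, 9.18, 11.0 and 10.9 TPM after stimulation and 32.9, 39.2 and 39.6 TPM with TRAIL. Its log2 fold change was -0.68 with stimulation (adjusted p = 4.2e-04 from limma, not called), 1.75 with TRAIL against stimulated cells (adjusted p = 4.2e-07 from limma) and 1.07 against medium (95% confidence interval 0.82 to 1.33, adjusted p = 1.4e-04 from limma). With a pseudocount of 5 the last value was 0.93 and was not called. *Klf11* was the least abundant member, at 5.33, 5.55 and 5.30 TPM in medium, 1.36, 1.87 and 1.30 TPM after stimulation and 15.0, 17.0 and 15.9 TPM with TRAIL. The groups of both genes are separate from each other. The mean of *Klf11* was 3.57-fold lower after stimulation than in medium (log2 fold change -1.35, adjusted p = 4.0e-06 from limma, and -0.96 and not called under quantile normalization), 10.5-fold higher with TRAIL than without it (2.76, adjusted p = 2.5e-08 from limma) and 2.96-fold above medium (1.41, adjusted p = 3.5e-05 from limma).

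**Figure D4:**
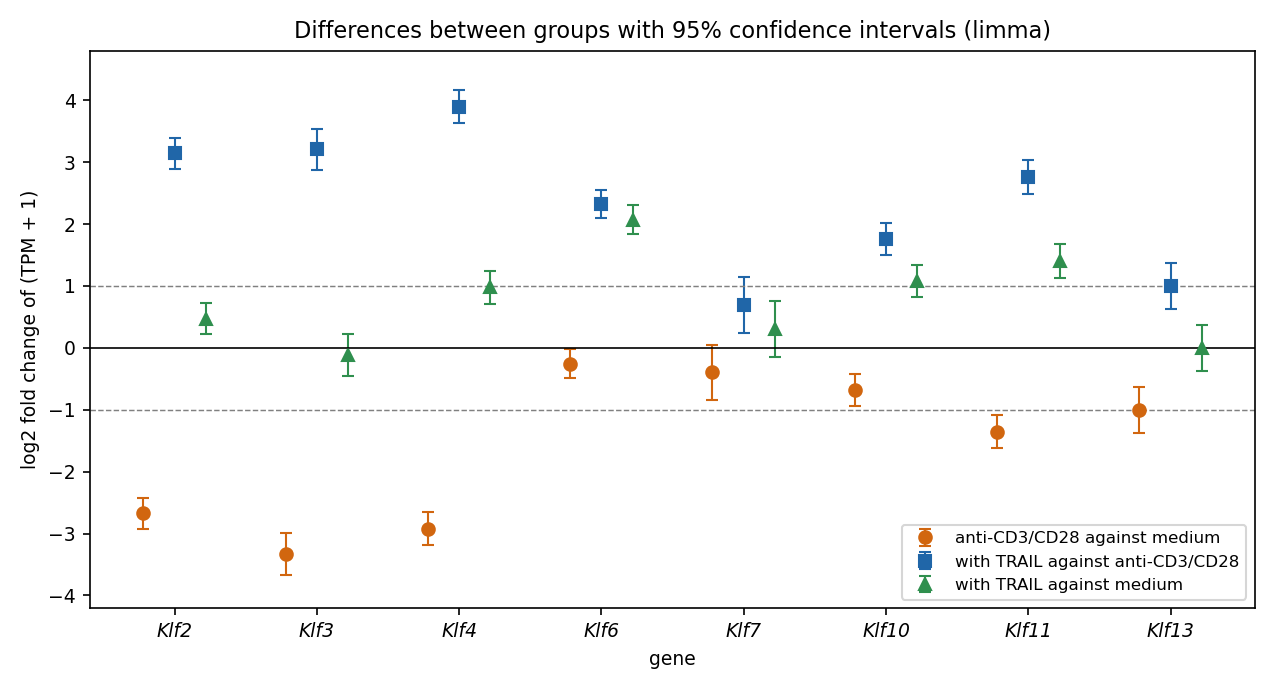
Log2 fold change of (TPM + 1) for each KLF gene in the 3 comparisons of groups (n = 3 each), with 95% confidence intervals from limma and dashed lines at the fold threshold of 1 in each direction. All 8 values for TRAIL-treated against stimulated cells lie above 0, from 0.70 in *Klf7* to 3.90 in *Klf4*, and against medium the interval of *Klf3*, *Klf7* and *Klf13* includes 0.

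The likeness of the members over the 9 libraries was described from their centred log2(TPM + 1) values. The root mean square difference was smallest for *Klf7* with *Klf13* (0.26), followed by *Klf2* with *Klf3* (0.32), *Klf2* with *Klf4* (0.33), *Klf6* with *Klf10* (0.41) and *Klf10* with *Klf11* (0.43), and it was largest for *Klf4* with *Klf7* (1.39). Pearson's r over the 9 libraries was 0.99 for *Klf2* with *Klf4* and 0.56 for *Klf3* with *Klf6*. All of these points share their libraries and fall in 3 groups. Among 10423 other genes with at least 10 TPM in a group, the closest to *Klf2* were *Mex3b* and *Rasd1* (root mean square difference 0.11 for each), the closest to *Klf3* were *Arhgef18* (0.086) and *Rnf144a* (0.10), and the closest to *Klf4* were *Sox4* and *Tob1* (0.11 for each). *Sox4* averaged 23.9, 2.60 and 44.8 TPM and *Tob1*, an antiproliferative gene, 106, 14.9 and 200.5 TPM across medium, stimulated and TRAIL-treated cells. *Tob2*, its relative, was the closest to *Klf6*, at 59.1, 45.1 and 223 TPM, followed by *Gch1* (0.11 and 0.12). *Sirt1* and *Junb* were nearest to *Klf10* (0.11 and 0.14). *Plk2* (0.13) and *Mir7048* (0.12) were nearest to *Klf11*. *Mir7048* lies within *Dedd2*, so its value may hold reads of that gene. *Dgkd* and *Tacc1* were nearest to *Klf13* (0.054 and 0.057).

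The genes that KLF2 is known to drive for exit from and homing to lymphoid tissue were examined next. Of 4 reported, 3 were called lower after stimulation and 3 higher with TRAIL than without it. Between TRAIL-treated and medium cells 0 differed by a call by limma, and 1 was called higher without medium replicate 2. With all libraries, 2 were higher and 1 lower there at an unadjusted p under 0.05, and 1 higher and 1 lower at an adjusted p under 0.05. Over all genes tested, 19.5% were called lower after stimulation and 16.6% higher with TRAIL than without it. Against medium, 2.49% were called higher and 2.13% lower with TRAIL. The medians were -1.91, 1.46 and 0.09. *S1pr1*, the receptor that senses sphingosine 1-phosphate during exit, measured 330, 399 and 346 TPM in medium, 31.2, 43.3 and 30.8 TPM after stimulation and 451, 459 and 415 TPM with TRAIL. Its log2 fold change was -3.33 with stimulation and 3.63 with TRAIL against stimulated cells (adjusted p = 1.3e-08 and 8.6e-09 from limma), and TRAIL-treated cells differed from medium by 0.30 (adjusted p = 0.112 from limma). *Itgb7*, an integrin chain of gut homing, changed by -1.79 and 1.66, and *S1pr4*, a related sphingosine 1-phosphate receptor, by -2.03 and 1.27. *Ccr7*, the chemokine receptor of lymph node entry, is named to complete these genes and did not follow. It averaged 289, 537 and 564 TPM, with a difference of 0.07 between TRAIL-treated and stimulated cells.

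**Figure D5:**
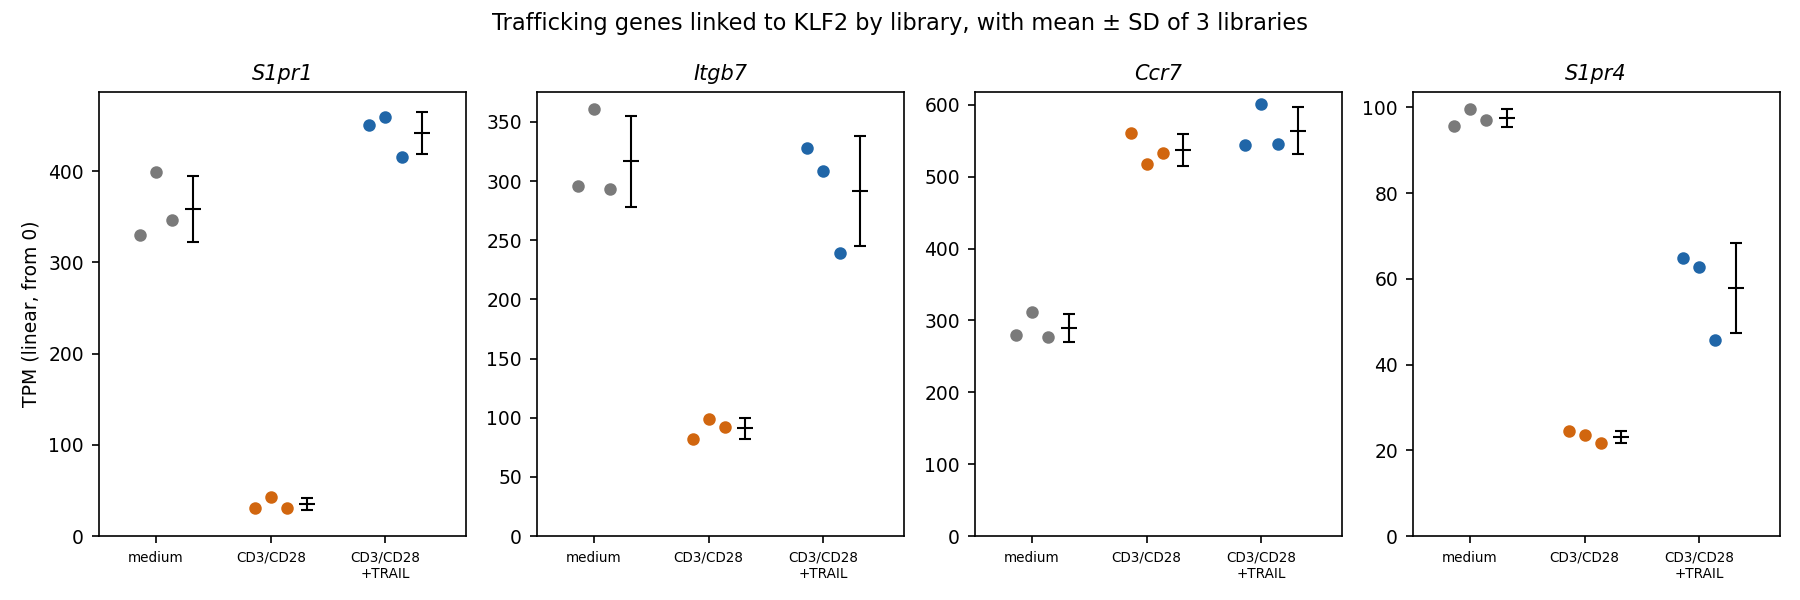
TPM (linear axes from 0) of 4 trafficking genes linked to KLF2 by library in medium, after anti-CD3/CD28 (CD3/CD28) and after anti-CD3/CD28 with TRAIL, with mean ± SD of 3 libraries. *S1pr1*, *Itgb7* and *S1pr4* are lowest after stimulation and higher with TRAIL, and *Ccr7* is lowest in medium.

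Genes known to be raised when T cells lack KLF2 did not move as one group. Of the 3 reported, 1 was called higher and 2 lower after stimulation, and each was called in the opposite direction when TRAIL-treated were compared with stimulated cells. Over all genes tested, 12.4% were called higher and 19.5% lower after stimulation, and 16.6% higher and 14.3% lower with TRAIL than without it. *Il4* (0.740, 28.3 and 1.50 TPM on average in medium, stimulated and TRAIL-treated cells) was highest after stimulation. *Cxcr3* (22.8, 5.66 and 14.2 TPM) and *Ccr3* (28.7, 0.662 and 23.4 TPM), the latter best known from eosinophils, were lowest there.

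Among 8 regulators upstream of *Klf2*, 3 were called lower after stimulation and 4 higher with TRAIL than without it, with medians of -0.80 and 1.00, beside 19.5% and 16.6% of all genes tested. Against medium 0 were called by limma, beside 2.49% of all genes tested called higher and 2.13% lower. Of the 8, 1 was higher and 1 lower there at an adjusted p under 0.05, short of the fold threshold. *Foxo1* and *Foxo4*, forkhead factors that activate *Klf2* and are switched off by kinase signaling downstream of the TCR, averaged 90.7, 38.6 and 89.2 TPM and 34.3, 12.8 and 34.2 TPM across medium, stimulated and TRAIL-treated cells. Of the MEF2 factors, whose site is printed above in the *Klf2* sequence, *Mef2d* averaged 136, 95.2 and 217 TPM and rose with TRAIL against stimulated cells (log2 fold change 1.21, adjusted p = 1.3e-04 from limma), although without stimulated replicate 1 the value was 0.9966 and just missed a call. *Mef2c*, which B cells and myeloid cells express strongly, averaged 120.5, 8.84 and 66.6 TPM. The kinase genes *Mapk7* and *Map2k5*, named to complete the pathway, were not called in a comparison.

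KLF proteins act through cofactors, and these genes were less uniform. Of 11 listed, 3 were called higher and 1 lower with TRAIL than without it, beside 16.6% and 14.3% of all genes tested, and the median was -0.12. *Kat2b*, an acetyltransferase gene, differed by 1.56, *Crebbp* by 1.24 (0.81 and not called without stimulated replicate 1) and *Ctbp2* by 1.17, while *Fhl3*, a LIM-domain partner of KLF3, differed by -1.74. After stimulation 1 was called higher and 2 lower, beside 12.4% and 19.5% of all genes tested, and the lower calls became 4 without stimulated replicate 2 or without stimulated replicate 3. Of 4 ubiquitin ligases known to act on KLF proteins, 0 were called in any of the comparisons by limma. Over all genes tested, 12.4% were called higher and 19.5% lower after stimulation, and 16.6% and 14.3% with TRAIL than without it. Against medium, 2.49% were called higher and 2.13% lower with TRAIL. For TRAIL-treated against stimulated cells, 3 of the ligases were higher and 1 lower at an adjusted p under 0.05, all short of the fold threshold. When stimulated replicate 2 or 3 was left out, 1 of them was called higher with TRAIL and 1 lower after stimulation, and leaving out medium replicate 3 also gave 1 called lower after stimulation.

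In the TGF-β pathway, which induces *Klf10* and *Klf11*, 4 of 9 genes were called higher with TRAIL than without it (2 of 9 without stimulated replicate 1) and 0 lower, with a median of 0.77, beside 16.6% of all genes tested called higher. *Smad7*, an inhibitor of the pathway, averaged 66.8, 20.6 and 142 TPM across medium, stimulated and TRAIL-treated cells, and like *Klf10* and *Klf11* it was called higher than in both other groups (log2 fold change 2.73 against stimulated and 1.08 against medium cells). *Tgfbr2*, a receptor chain, averaged 121, 30.7 and 120 TPM, and *Skil* and *Smad4* differed from stimulated cells by 1.05 and 1.01, and without stimulated replicate 1 by 0.93 and 0.88, which were not called. The call of *Smad4* was also lost without TRAIL-treated replicate 1 or 2 (0.96 and 0.99). The ligand gene *Tgfb1*, chosen after its values were seen, averaged 200.4, 203 and 177 TPM. Among genes known as targets of single members, *Ccl5*, the target of KLF13, fell with stimulation by 2.14 on the log2 scale and was 1.59 higher with TRAIL. *Cdkn1b*, the inhibitor p27 of quiescent cells, changed by -1.51 and 1.98, and *Cdkn1a*, the inhibitor p21 and a target of KLF4 and KLF6, moved the opposite way by 4.53 and -1.95. With TRAIL against medium, *Cdkn1a* was called higher (log2 fold change 2.59, adjusted p = 1.9e-06 from limma). *Foxp3*, the gene of regulatory T cells that KLF10 can activate, averaged 29.1, 25.5 and 25.1 TPM and was not called.

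The remaining KLF and SP genes served as a comparison within the family. Of 18 listed, 11 passed the filter, and 5 of these were called lower after stimulation (3 without medium replicate 2) and 2 higher with TRAIL than without it, beside 19.5% and 16.6% of all genes tested, with medians of -0.96 and 0.44. After stimulation 1 was called higher, *Klf9* (log2 fold change 1.15, adjusted p = 1.6e-05 from limma), beside 12.4% of all genes tested. *Sp3* and *Sp4*, broadly expressed factors that bind GC boxes, were called in both of these comparisons and averaged 226, 76.8 and 173 TPM and 66.3, 20.6 and 62.0 TPM across medium, stimulated and TRAIL-treated cells. Against medium, *Klf1* was called lower with TRAIL and *Klf9*, which is named for its calls, higher, beside 2.13% and 2.49% of all genes tested. *Klf1*, the erythroid member, averaged 13.4, 0.983 and 2.67 TPM, and all 6 erythroid genes were called lower in TRAIL-treated than in medium cells (median -1.90, beside 2.13% of all genes tested). *Klf9* averaged 2.50, 6.80 and 9.30 TPM. *Klf15* sat at the table floor of 0.0001 TPM in every stimulated library and measured 1.07 to 1.30 TPM in medium and 0.544 to 0.813 TPM in TRAIL-treated libraries. *Klf14*, *Klf17*, *Sp7* and *Sp8* were at that floor in all 9 libraries.

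Immediate-early genes are induced within minutes of a signal, and some members of the KLF family are counted among them. Of 12 listed, 6 were called lower and 2 higher after stimulation, 10 were called higher and 0 lower with TRAIL than without it, and 8 were called higher and 0 lower with TRAIL than in medium (5 without TRAIL-treated replicate 2). Their medians were -1.04, 2.54 and 1.06. Over all genes tested, 19.5% were called lower and 12.4% higher after stimulation, 16.6% higher and 14.3% lower with TRAIL than without it, and 2.49% higher and 2.13% lower with TRAIL than in medium. *Fosb* and *Fos* averaged 175, 1.17 and 343 TPM and 322, 6.97 and 478 TPM across medium, stimulated and TRAIL-treated cells, and *Dusp1* and *Btg2* 180, 18.0 and 367 TPM and 155, 37.0 and 440 TPM. *Atf3* and *Ier3*, the 2 called higher after stimulation and named for that, went against the KLF genes there, with means of 2.07 and 5.72 TPM in medium and 79.1 and 22.5 TPM after stimulation. They were also the 2 not called with TRAIL against stimulated cells, at log2 differences of 0.15 and -0.70. The part of these genes in the KLF values was not tested.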

How the data were processed

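The authors trimmed paired-end reads with Trimmomatic (0.36 in the submitters' processing notes, which also name HISAT2 2.1.0, SAMtools 1.2, StringTie 2.1.2 and DESeq2) and aligned them with HISAT2 to GRCm38. The notes give GRCh38, but the deposited loci of the members are mouse GRCm38 loci. The deposited file gives TPM, 1 column for each library, and each column sums to 1000003. Which program computed TPM, and from which annotation release, is not given in the sources used here. The floor of 0.0001 also appears in some library for 16 genes whose median reaches 10 TPM. Whether it marks a failed estimate or an absent transcript there was not examined. The floor appears in 0 values of the members. TPM keeps no depth, so no counting error can be given, and a count model could not be used.

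Groups came from sample titles. Differences were fitted in R 4.3.3 with limma 3.58.1 (lmFit, eBayes with a trend) on log2(TPM + 1), all 9 libraries in 1 fit without a replicate block, and p-values were adjusted over all 15536 genes tested. Tables were made with Python 3.11.15 and pandas 2.3.3. The fit was tested on simulated data. The members and gene lists were chosen with earlier results of these data known. Results of 2 listed genes are not reported here. By rule, all members were named, the 2 most alike genes for each member whose group means span at least 1 on the log2 scale, and up to 4 called genes per list with the largest TRAIL difference. Alternatives varied the pseudocount, filter, scaling, variance trend, libraries fitted, block and fold threshold, and left out each library. Libraries within a group correlated at 0.983 to 0.993 across genes, between groups at 0.820 to 0.970, and none were identical.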

Additional observations from a re-analysis of the deposited data

How the results depend on the processing

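Of 456 fold changes of single members under the alternatives, 428 kept their direction and their side of the call, 7 lost the call, 16 gained it and 5 changed sign. Those that changed sign were values near 0 for TRAIL-treated against medium cells, *Klf3* at 0.0683 under median-of-ratios scaling, and *Klf13* at 0.18 under median-of-ratios scaling, 0.0920 under quantile normalization, 0.0956 without medium replicate 2 and 0.0785 without TRAIL-treated replicate 3. Over all left-out libraries *Klf13* ranged from -0.0888 to 0.0956 there. The number of members called lower after stimulation went from 5 to 3 with a pseudocount of 5, where *Klf11* fell by 0.68 on the log2 scale and *Klf13* by 0.96, was 4 under median-of-ratios scaling (*Klf13* at -0.91) and 4 under quantile normalization (*Klf11* at -0.96), and ranged from 4 to 5 without single libraries. Without a fold threshold the number called higher with TRAIL than in medium went from 3 to 5. It was 4 under both other scalings, where *Klf4* gained a call, *Klf10* lost its call with a pseudocount of 5 (0.93), and it was 3 to 4 without single libraries. The number called higher with TRAIL than after stimulation was 7 under both other scalings, where *Klf13* gained a call, and 6 to 7 without single libraries. The replicate block changed no call of a member, with 5 lower after stimulation, 6 higher with TRAIL against stimulated cells and 3 against medium. Same-numbered libraries did not deviate together, with correlations of -0.306 to 0.295 and 3 of 9 pairs over 0.1, so the numbers were not taken as pairs, and 1 of 9 libraries correlated best with its own number in both other groups. The depth behind the TPM values is unknown, so the lowest members, *Klf11* above all, carry an unknown counting error.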
